A study of Mus musculus with 6 samples.

Results

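The 6 genes described here are Ubr4, Ubr1, Ubr2, Ubr3 and Ubr7, which encode ubiquitin ligases with a UBR box, and Ubb, which encodes polyubiquitin. They were taken by gene name from 39171 gene identifiers, each name matched 1 row, and no member was listed at 0 in any library. Ubr4 came to attention through its AngII against Control values in these libraries, so the values of the members in that comparison are given as a description with no test. Not every gene of the UBR and polyubiquitin families is described.

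Messenger RNA was sequenced from CD4+ T cells, taken from spleen suspensions with a cell isolation kit, of C57BL/6 mice of premenopausal age, with 1 library per mouse. The AngII group (n = 3 mice) received angiotensin II, the pressor peptide of the renin-angiotensin system, at 800 ng/kg/min from an osmotic minipump over 14 days that began at 10 weeks of age. The Control group (n = 3 mice) was of the same strain and age and is labelled untreated, and no sham pump or vehicle is named in the labels. Values are the authors' FPKM, fragments scaled to transcript length and to the mapped library. They can be compared between genes as far as the annotated transcript lengths hold.

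Ubiquitin ligases of the UBR family read N-degrons, destabilising residues at the amino terminus of a protein, and mark the protein for the proteasome with ubiquitin. Ubr1, Ubr2 and Ubr4 recognise such residues. Ubr3 and Ubr7 carry the UBR box without an established role in classical N-degron recognition. Ubr4 encodes one of the largest ligases of the mouse, which binds calmodulin and works with the partner ligase Kcmf1. Ubb supplies ubiquitin itself, translated as a chain of units joined head to tail and then cut apart, and is induced in many cells under proteotoxic stress.

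Ubr4 had lower values in all AngII libraries than in any Control library, while the other 5 genes overlapped between the groups. Ubr4 (ENSMUSG00000066036) was at 25.7, 24.6 and 25.3 FPKM in AngII replicates 1, 2 and 3, against 35.9, 32.5 and 32.9 FPKM in Control replicates 1, 2 and 3. The highest AngII value lay 6.75 FPKM below the lowest Control value. The mean was 25.2 ± 0.607 FPKM in AngII and 33.8 ± 1.83 FPKM in Control (SD, n = 3 each), which is 25.3% lower, and the difference on the log2(FPKM + 1) scale was -0.41 (SE 0.0609). Of the 6 members, 1 had AngII values wholly below Control and 0 had them wholly above. Of the 11842 genes whose mean reached 1 FPKM, 3.48% had AngII values wholly below Control and 2.36% wholly above, 5.84% in all. Since Ubr4 was chosen from this comparison, nothing is read from its place in that background. In a bulk sample, fewer cells of a type and less RNA per cell cannot be told apart.

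**Figure D1:**
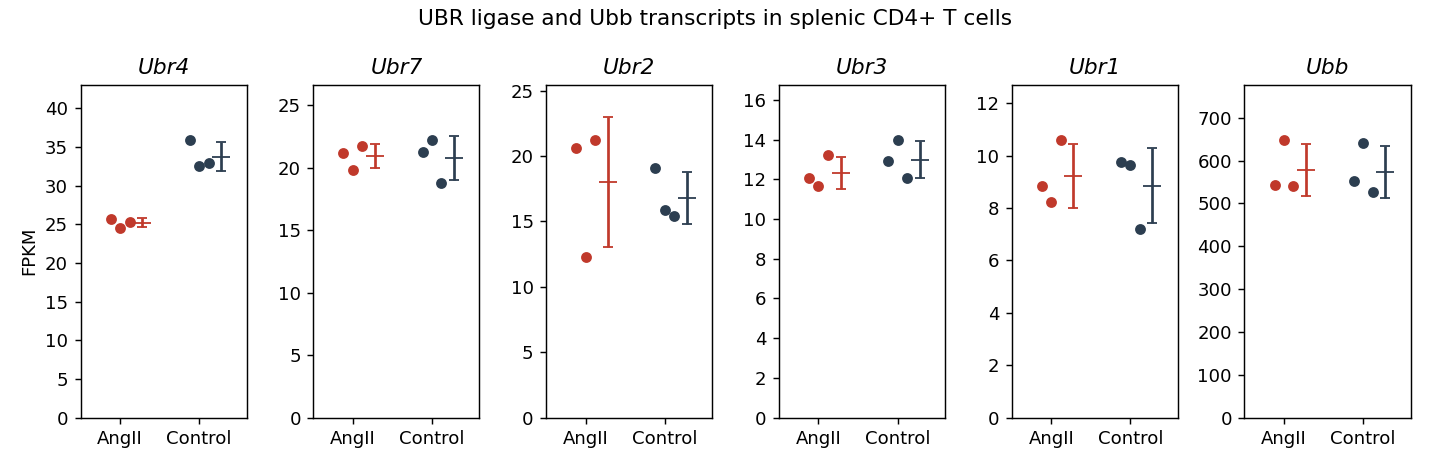
FPKM of the 6 genes in each library, with AngII (red) left of Control (dark blue); points are libraries, the bar beside them is the mean ± SD of 3 mice, and each panel has its own axis from 0. The AngII points of Ubr4 lie between 24.6 and 25.7 FPKM, below all Control points, and the groups overlap in the other panels.

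The Ubr4 gene spans chr4:139352609-139489588 on the plus strand (GRCm38, GENCODE M21). Its longest coding transcript, Ubr4-201, has 106 exons and 15928 bases, of which 15540 are coding, and none of its 50-base stretches occurs in a transcript of another gene. A further transcript, Ubr4-210, begins in the first exon region of Emc1, a subunit gene of the endoplasmic reticulum membrane complex that lies just upstream on the same strand, and joins 1 exon there to 27 exons shared with Ubr4. In the authors' deposited table the row that holds Ubr4 is named Emc1 and Ubr4 together, with the locus chr4:139352583-139489588, so that table has no separate value for Ubr4. The library files list the genes apart. Emc1 was at 6.43, 4.52 and 5.99 FPKM in AngII replicates 1 to 3, against 5.83, 5.52 and 5.09 FPKM in Control replicates 1 to 3. The Emc1 groups overlapped, with a log2 difference of 0.03 (SE 0.129). How the authors' software divided reads of the shared first exon between the genes is not given in the sources used here. Emc1 was chosen after its values were seen.

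**Figure D2:**
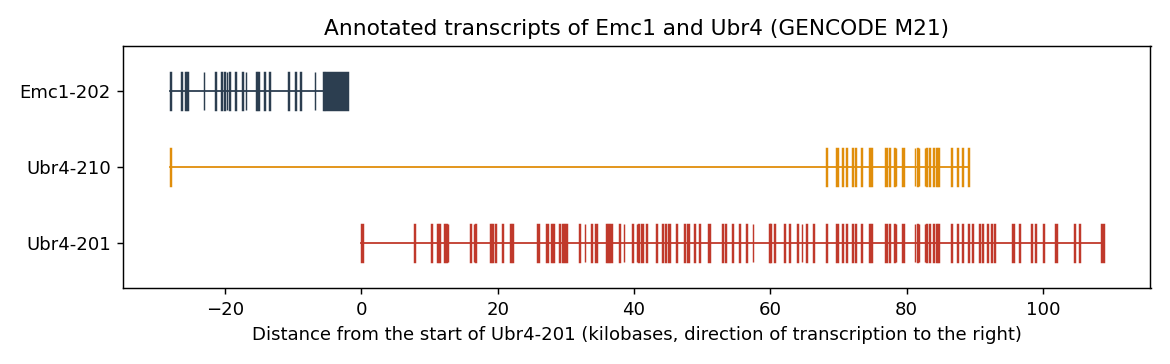
Exons (blocks, drawn with a thin outline) and introns (lines) of 1 Emc1 and 2 Ubr4 transcripts, by distance in kilobases from the start of Ubr4-201, with transcription to the right. Ubr4-210 starts at the beginning of Emc1 and continues into Ubr4.

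The promoter of Ubr4 is shown because Ubr4 was the member whose groups lay apart, and that of Ubb because it was the most abundant member. Both are the 250 bases before the RefSeq start site (GRCm38.p6), on the plus strand, chr4:139380409-139380658 for Ubr4 and chr11:62550921-62551170 for Ubb. Capitals mark matches on either strand to the motifs searched.
Ubr4: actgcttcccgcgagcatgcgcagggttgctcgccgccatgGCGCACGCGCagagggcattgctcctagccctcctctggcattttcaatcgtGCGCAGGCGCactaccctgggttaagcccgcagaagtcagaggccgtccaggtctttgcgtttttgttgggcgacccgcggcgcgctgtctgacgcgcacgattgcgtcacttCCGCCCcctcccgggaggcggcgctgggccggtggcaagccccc
Ubb: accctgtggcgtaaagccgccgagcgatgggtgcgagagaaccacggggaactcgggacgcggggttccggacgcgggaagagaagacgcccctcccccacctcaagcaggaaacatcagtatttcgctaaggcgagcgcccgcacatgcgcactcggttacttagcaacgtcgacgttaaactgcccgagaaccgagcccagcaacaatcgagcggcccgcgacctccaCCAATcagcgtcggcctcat

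The motifs searched were the GC box (GGGCGG), the CCAAT box (CCAAT), the TATA box (TATAAA), a heat shock element (GAANNTTC), the core of the NRF1 motif and an ETS core (CCGGAAG). The Ubr4 window held 2 matches to the NRF1 core, which 3.74% of 32851 RefSeq promoter windows of the same length hold at least once, and 1 GC box, held by 32.7%. None of the other 5 members had the NRF1 core in its window. The Ubb window held 1 CCAAT box, held by 33.8% of windows, and no heat shock element, which 6.69% hold. Ubr1 had 2 matches to the ETS core and 1 GC box, Ubr3 had 3 GC boxes, and Ubr7 had 3 GC boxes, 2 CCAAT boxes and 1 ETS core. The Ubr2 window held none of the 6 motifs. Matches are descriptions of letters in these windows and not of binding.

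The values of the other N-recognins, Ubr1 and Ubr2, overlapped between the groups. Ubr1 (ENSMUSG00000027272, chr2:120860269-120970715), the founding N-recognin, was the lowest of the ligases at 8.85, 8.24 and 10.6 FPKM in AngII replicates 1 to 3 and 9.74, 9.64 and 7.19 FPKM in Control replicates 1 to 3. Its log2 difference was 0.06 (SE 0.142), and the highest and lowest libraries were AngII replicate 3 and Control replicate 3. Ubr2 (ENSMUSG00000023977, chr17:46928295-47010556), its closest relative, was at 20.6, 12.3 and 21.2 FPKM in AngII and 19.1, 15.9 and 15.4 FPKM in Control. The AngII libraries of Ubr2 spread widely, with a coefficient of variation of 27.6% against 11.9% in Control, because replicate 2 was the lowest of all 6 libraries and the other 2 were the highest.

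The Ubr2 log2 difference was 0.07 (SE 0.215) over all libraries and 0.31 (SE 0.103) without AngII replicate 2. In that library other measures also lay at an extreme. The summed FPKM of 9 macrophage markers was 2702 there, against 1401 and 1357 in AngII replicates 1 and 3 and 1100 to 1873 in Control libraries. The heat shock gene Hsph1 was at 19.6 FPKM there, against 95.2 and 93.2 FPKM in the other AngII libraries and 76.5 to 96.6 FPKM in Control. The part of these in the Ubr2 value was not tested.

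The ligases without a classical N-degron role, Ubr7 and Ubr3, also overlapped between the groups. Ubr7 (ENSMUSG00000041712, chr12:102757967-102777707), which joins a UBR box to a PHD finger, was at 21.2, 19.8 and 21.7 FPKM in AngII and 21.3, 22.2 and 18.8 FPKM in Control. Its log2 difference was 0.01 (SE 0.0799), and its highest library was 1.18 times its lowest. Ubr3 (ENSMUSG00000044308, chr2:69897246-70024013) was at 12.1, 11.7 and 13.2 FPKM in AngII and 12.9, 14.0 and 12.1 FPKM in Control. Its log2 difference was -0.07 (SE 0.0794), with overlapping groups.

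Ubb was by far the most abundant member. Ubb (ENSMUSG00000019505, chr11:62551171-62553213) was at 544.0, 647.1 and 541.3 FPKM in AngII replicates 1 to 3 and 553.4, 640.3 and 526.1 FPKM in Control replicates 1 to 3. The mean was 577 ± 60.3 FPKM in AngII and 573 ± 59.7 FPKM in Control (SD, n = 3 each), a log2 difference of 0.01 (SE 0.109). Replicate 2 was the highest library of each group. By mean level Ubb ranked 156th of the 11842 genes, Ubr4 2979th, Ubr7 4123rd, Ubr2 4754th, Ubr3 5890th and Ubr1 7035th.

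The coding sequence of Ubb holds 4 ubiquitin units of 228 bases, each 76 codons, which are 95.6% to 99.1% identical to each other. Of the 1450 stretches of 50 bases in its transcript, 61.0% also occur in transcripts of 5 other annotated genes, 4 of them pseudogenes, so the FPKM of Ubb depends on how reads with several matches were assigned. The same measure was 0% for Ubr2, Ubr3 and Ubr4, 2.75% for Ubr1 and 5.11% for Ubr7.

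The order of the 5 ligases by FPKM was the same in all 6 libraries, with Ubr4 highest, followed by Ubr7, Ubr2, Ubr3 and Ubr1. Neighbours were not equally far apart. In AngII, the values of Ubr4 (24.6 to 25.7 FPKM) lay nearer to those of Ubr7 (19.8 to 21.7 FPKM) than in Control, where Ubr4 was at 32.5 to 35.9 FPKM and Ubr7 at 18.8 to 22.2 FPKM. Ubr7 and Ubr2 did not differ beyond their spread in AngII, since Ubr2 ranged from 12.3 to 21.2 FPKM, nor in Control, where Ubr2 reached 19.1 FPKM. The ranges of Ubr3 and Ubr2 met in AngII but not in Control (12.1 to 14.0 FPKM against 15.4 to 19.1 FPKM), and Ubr1 lay below Ubr3 without overlap in both groups.

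Within a library, Ubr4 made up a smaller share of the summed FPKM of the 5 ligases in AngII. The share was 29.1%, 32.1% and 27.5% in AngII replicates 1 to 3, against 36.3%, 34.5% and 38.1% in Control replicates 1 to 3. The sum of the other 4 ligases was 60.4 ± 7.59 FPKM in AngII and 59.4 ± 5.18 FPKM in Control (SD, n = 3 each). The ratio of Ubr4 to Ubr7 in the same library was 1.21 ± 0.0362 in AngII and 1.64 ± 0.151 in Control. These ratios rest on the same Ubr4 values and are not further evidence of a difference.

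Ubr4 has one of the longest transcripts measured, and other very long transcripts were set beside it. Among listed ligases of the HECT type and other large ligases, 7 had a coding transcript of 14579 to 16716 bases, and all 7 were lower in AngII. Here and below, genes are counted as lower or higher by the difference of group means of log2(FPKM + 1). These were Birc6, Hectd4, Herc1, Herc2, Huwe1, Mycbp2 and Rnf213, with a median log2 difference of -0.24 (range -0.45 to -0.15). AngII values lay wholly below Control for 2 of the 7, Mycbp2 and Rnf213, as for 3.48% of all genes tested, and the groups overlapped for the others. Relative to each gene's own mean over the libraries, the median of the 7 was -0.19, -0.31 and 0.05 in AngII replicates 1 to 3. It was 0.37, 0.16 and -0.22 in Control replicates 1 to 3. Mycbp2, a large ligase known for its role in axons, was at 29.97, 29.2 and 34.9 FPKM in AngII replicates 1 to 3, against 45.6, 41.1 and 37.2 FPKM in Control replicates 1 to 3. Rnf213, the interferon-inducible ligase of moyamoya disease, averaged 24.8 ± 3.94 FPKM in AngII and 34.2 ± 4.29 FPKM in Control (SD, n = 3 each). Neither passed the threshold (limma adjusted p = 0.9999 for both). The other 22 ligases of that list, with transcripts of 3485 to 9856 bases, had a median of 0.03, and 5 of them were lower and 17 higher in AngII on that scale.

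Over all protein-coding genes tested, the 44 genes other than Ubr4 with a transcript of at least 14000 bases had a median log2 difference of -0.11, and 75% had lower values in AngII. In classes of 10000 to 14000, 5000 to 10000, 2000 to 5000 and under 2000 bases, the medians were -0.03, 0.03, 0.01 and -0.05. The shares lower in AngII in these classes were 62.5%, 36.9%, 47.4% and 69.7%, so a high share was also found among the shortest transcripts. The median of all 11842 genes was -0.004, with 52% lower. The level of the longest class moved from library to library. Relative to each gene's own mean over the libraries, its median was -0.04, -0.22 and 0.09 on the log2 scale in AngII replicates 1 to 3 and 0.27, 0.07 and -0.10 in Control replicates 1 to 3. Ubr4 on the same scale was at -0.17, -0.24 and -0.20 in AngII and 0.29, 0.15 and 0.17 in Control. Both were highest in Control replicate 1 and lowest in AngII replicate 2, while in AngII replicate 3 and Control replicate 3 the class lay on the opposite side of its mean from Ubr4.

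Taken relative to the median of that class in the same library, Ubr4 was at -0.13, -0.02 and -0.28 in AngII replicates 1 to 3 and 0.02, 0.08 and 0.27 in Control replicates 1 to 3. The groups still did not overlap, with nearest values of -0.02 and 0.02. The difference was -0.27 (SE 0.107) in place of -0.41. That SE comes from the group SDs of these relative values alone, while the other SEs given here are from the limma fit. The length limit was chosen after the data were seen. The part of transcript length in the Ubr4 value was not tested.

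**Figure D3:**
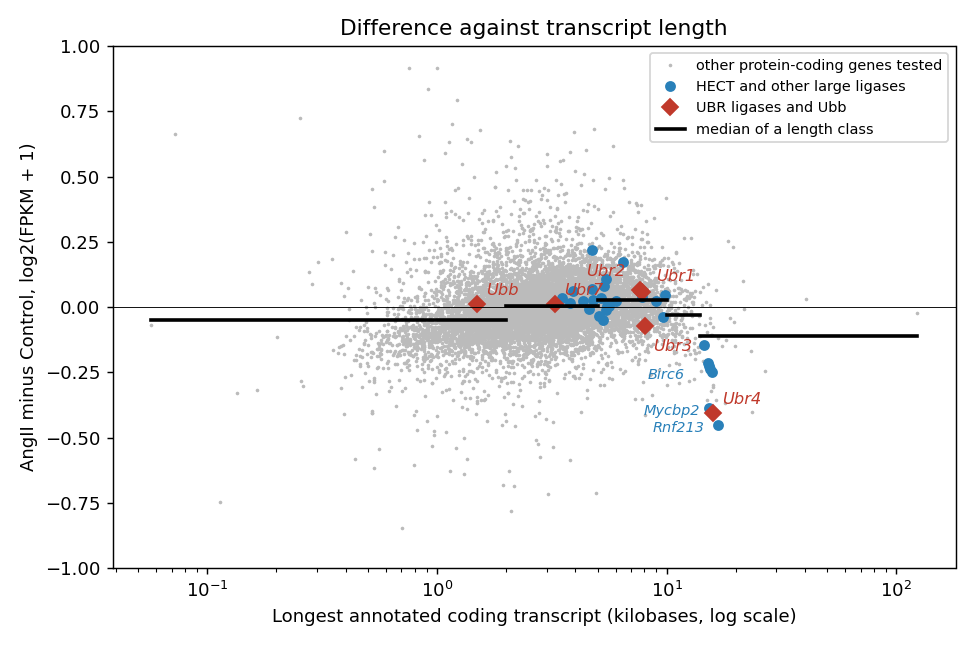
Difference AngII minus Control in log2(FPKM + 1) against the longest annotated coding transcript in kilobases (log axis) for 10527 protein-coding genes, with the UBR ligases and Ubb (red), HECT and other large ligases (blue) and medians of 5 length classes (black lines); 20 genes beyond 1 or -1 are not drawn. Ubr4 (-0.41) lies with Mycbp2 (-0.38) and Rnf213 (-0.45) at the long end, where the class median is -0.11.

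The genes most like Ubr4 over the 6 libraries were sought by the root mean square distance between log2(FPKM + 1) profiles centred on their own means, among 6179 genes whose mean reached 10 FPKM. The nearest was Vps13d (distance 0.0868), a lipid transfer protein gene with a transcript of 15849 bases, followed by Mycbp2 (0.0918), Ndufaf3 (0.0920), an assembly factor of complex I, Socs3 (0.0958), an inhibitor of cytokine signalling, and Psmb9 (0.0974), an immunoproteasome subunit. The median distance of all genes compared was 0.224. Vps13d was at 15.2, 16.4 and 15.9 FPKM in AngII replicates 1 to 3, against 21.6, 20.0 and 17.96 FPKM in Control replicates 1 to 3. The 5 genes had log2 differences from -0.38 (Mycbp2) to -0.24 (Socs3), smaller in size than that of Ubr4. They were picked for likeness to Ubr4 over the same libraries, so their lower AngII levels follow from that choice.

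Nearest to Ubb were Ier3ip1 (distance 0.0264), Skiv2l (0.0298), Uimc1 (0.0300), Mthfd1 (0.0368) and Stx8 (0.0372), against a median of 0.152. Uimc1 binds ubiquitin chains at DNA breaks, and Skiv2l is an RNA helicase that works with the exosome. Picked for likeness to Ubb over the same libraries, these genes shared its high values of replicate 2 in both groups. Their log2 differences lay between 0.01 (Uimc1) and 0.03 (Stx8). The summed FPKM of listed immediate early and heat shock genes was also highest in replicate 2 of each group, at 3345, 4604 and 3747 in AngII replicates 1 to 3 and 5212, 5619 and 3580 in Control replicates 1 to 3. The heat shock genes of that list did not share this pattern. Within AngII each of them was lowest in replicate 2, as with Hsph1 at 95.2, 19.6 and 93.2 FPKM in AngII replicates 1 to 3. In Control they had no common highest library. Fos, an immediate early factor, was at 143, 358 and 164 FPKM in AngII and 493, 575 and 151 FPKM in Control, so that Control replicate 1 was high in Fos and not in Ubb. The part of these genes in the Ubb values was not tested.

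**Figure D4:**
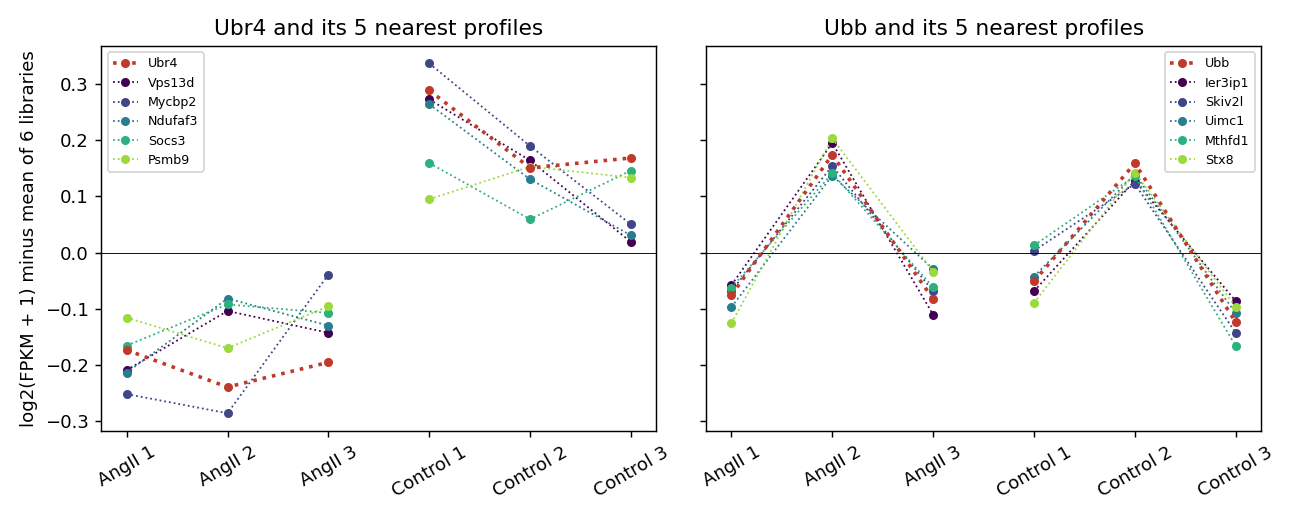
Log2(FPKM + 1) minus the mean over 6 libraries for Ubr4 (left) and Ubb (right), each in red, with the 5 genes of nearest profile; dotted lines join the points of a gene within a group and carry no order. The Ubr4 genes part the groups, and the Ubb genes share high values in replicate 2 of both groups. Both patterns follow from the search, which used these same values.

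Further listed genes of the ubiquitin pathway, 146 genes tested in 7 lists, were also compared between AngII and Control. None of these 146 passed the threshold (limma, 0 with an adjusted p below 0.05, and 2 at an unadjusted p below 0.05, Mycbp2 and Rnf213), where 0.0338% of all genes tested passed and 1.76% had an unadjusted p below 0.05. The median log2 difference was -0.01, with 77 lower and 69 higher, near the -0.004 of all genes. AngII values lay wholly below Control for 8 of the 146 genes (5.48%, against 3.48% of all genes) and wholly above for 3 (2.05%, against 2.36%). Among these genes, 1 (Rnf213) had a lower log2 difference than Ubr4. The named genes below had a limma adjusted p of 0.9999 each.

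Partners and clients of Ubr4 had 7 lower and 3 higher values of 10, with a median of -0.06. Kcmf1, the partner ligase, was at 26.6, 26.3 and 28.3 FPKM in AngII replicates 1 to 3 and 25.1, 26.1 and 25.6 FPKM in Control replicates 1 to 3, a log2 difference of 0.08 (SE 0.0555) opposite in sign to Ubr4. Ube2a, a conjugating enzyme that works with N-recognins, had a log2 difference of -0.13 (SE 0.0609), Calm3, a calmodulin gene, -0.10 (SE 0.0526), and Birc6, a giant conjugating enzyme and ligase, -0.25 (SE 0.181). Eif2ak1 and Dele1, a kinase and an activator of the mitochondrial stress response that the human UBR4 complex turns over, had means of 18.2 ± 0.440 and 10.1 ± 0.538 FPKM in AngII and 17.98 ± 0.668 and 10.4 ± 0.466 FPKM in Control (SD, n = 3 each).

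Of 21 other N-degron and C-degron enzymes, 7 had lower and 14 higher values, with a median of 0.03. Klhdc10, a receptor of C-degrons, had a log2 difference of 0.19 (SE 0.0819), Ntaq1, the amidase for amino-terminal glutamine, -0.16 (SE 0.0895), and Ntan1, the amidase for asparagine, -0.09 (SE 0.0707). Ate1, the arginine transferase that creates substrates for N-recognins, was at 15.2 to 15.8 FPKM in AngII and 13.4 to 16.2 FPKM in Control.

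Of 14 other genes of ubiquitin and ubiquitin-like proteins, 12 had lower and 2 higher values, with a median of -0.06. Rps27a, which encodes ubiquitin fused to a ribosomal protein, was more abundant than Ubb, at 1568 ± 135 FPKM in AngII and 1743 ± 169 FPKM in Control (SD, n = 3 each). Its log2 difference was -0.15 (SE 0.105). Isg15, a ubiquitin-like product of interferon signalling, had -0.22 (SE 0.102), and Ubl5, a ubiquitin-like splicing factor, -0.12 (SE 0.0843).

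Activating enzymes had 3 lower and 7 higher values of 10 (median 0.02). They included Uba7, the activating enzyme of Isg15 (-0.13, SE 0.0695), and Uba1, the main activating enzyme of ubiquitin (-0.10, SE 0.0644). Conjugating enzymes had 24 lower and 8 higher values of 32 (median -0.03), with Cdc34 at -0.11 (SE 0.0613) and Ube2f at -0.09 (SE 0.0539). Deubiquitinases had 15 lower and 19 higher values of 34 (median 0.01), with Usp16 at -0.19 (SE 0.0982), Usp18 at -0.16 (SE 0.103) and Usp8 at 0.11 (SE 0.0698). Among the large ligases, with 12 lower and 17 higher values of 29 (median 0.02), Wwp1 had a log2 difference of 0.17 (SE 0.108). In the authors' deposited table no gene found there from these 7 lists had a q-value below 0.05. In that table q was below 0.05 for 5 of 7 granulocyte markers, 3 of 19 immediate early and heat shock genes and 1 of 8 erythroid markers, and for no gene of the other marker lists. The share of all genes in that table with such a q-value is not given here. In the limma fit, 0 tested genes of these granulocyte, immediate early and erythroid lists passed the threshold. Their AngII and Control values overlapped for each tested gene.

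**Figure D5:**
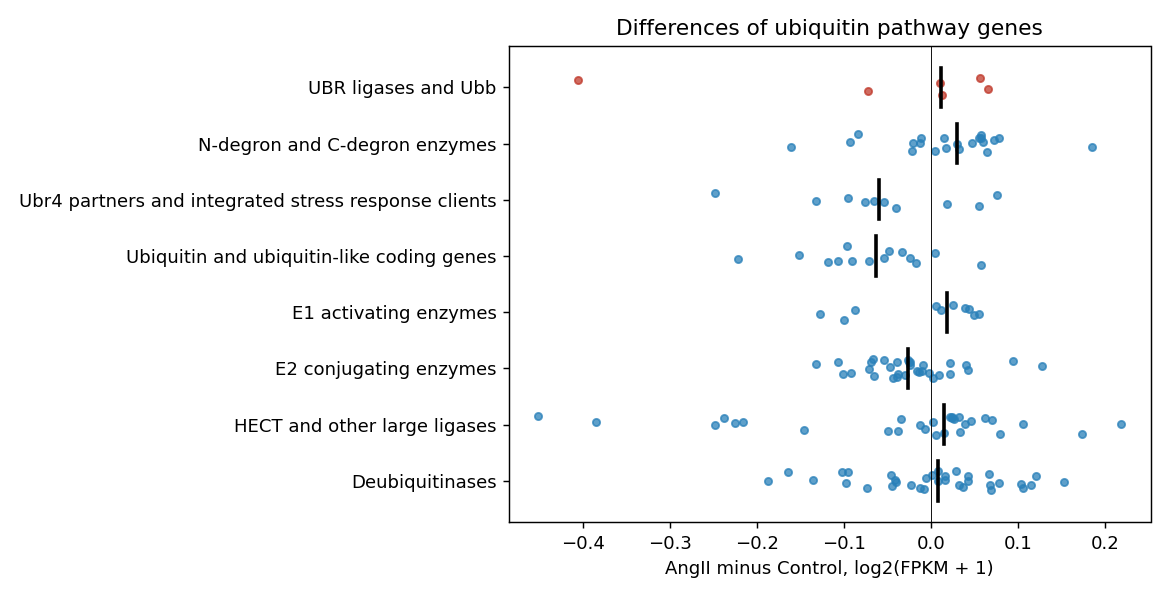
Log2 difference AngII minus Control of each gene (points) and the median of its list (black bars) for the UBR ligases with Ubb (red) and 7 lists of ubiquitin pathway genes (blue). Ubr4 (-0.41) stands at the low end of its row, and list medians lie between -0.06 and 0.03.

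The libraries carried helper T cell transcripts, and markers of other spleen cells were present. The summed FPKM of 8 helper T cell markers was 3029 to 3430 in AngII and 3029 to 3581 in Control, and Cd4 alone was at 214 to 238 FPKM in AngII and 203 to 254 FPKM in Control. Granulocyte markers were higher in AngII on the log2 scale (7 of 7 tested, 28.03 to 90.1 FPKM summed, against 9.38 to 48.5 FPKM in Control), with Ly6g at 0 in 5 libraries. Platelet markers were higher for 8 of 8 (161 to 216 FPKM in AngII and 81.5 to 259 FPKM in Control), and macrophage markers for 7 of 9 (1357 to 2702 FPKM and 1100 to 1873 FPKM). B cell markers were lower for 7 of 7 (583 to 946 FPKM in AngII and 656 to 1151 FPKM in Control), as were those of CD8 and NK cells (7 of 7, 98.8 to 136 FPKM and 112 to 152 FPKM). Erythroid markers were lower for 4 of 8 on the log2 scale, among them Hba-a2, whose mean FPKM was higher in AngII. The sum of the 8 erythroid markers was 196 to 811 FPKM in AngII and 360.2 to 600.2 FPKM in Control. Lower values were also found for 18 of 19 immediate early and heat shock genes (3345 to 4604 FPKM and 3580 to 5619 FPKM). The counts cover tested genes only, while the sums cover all measured genes of a list. Measured genes numbered 9 for granulocytes, 8 for CD8 and NK cells and 20 for the immediate early and heat shock list. The summed levels of each of these lists overlapped between the groups. Their part in the values of the members was not tested.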

How the data were processed

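Libraries were made from total RNA extracts with Illumina TruSeq protocols, per the labels' protocols, which do not state strand. Per the submitters' processing notes, the tools were Trimmomatic 0.32, TopHat2 2.1.1 and Cuffdiff with GRCm38.p3; no annotation release is named there. Per library, the authors deposited 1 file of FPKM. The authors' deposited table holds a p-value and a q-value per gene for conditions named by number, so no direction was taken from it. FPKM is no count, so values were tested as log2(FPKM + 1) for 11842 genes with a mean of at least 1, with limma 3.58.1 in R 4.3.3 (eBayes with trend, two-sided, Benjamini-Hochberg adjusted p below 0.05, over all genes). The code was tested on simulated data.

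Genes past the threshold numbered 4 of 11842, all lower in AngII; 1 of these, and 1 gene that the rule for named genes gives, are not reported here, and the counts over the lists leave the first out. Relative depth, read from the commonest ratio of the lowest FPKM values to Control replicate 1, was 1.02 to 1.12 in the other libraries; absolute depth was not recovered, so no counting intervals are given. Summed FPKM was 613700 to 717300.

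Symbols and positions are from GENCODE M21, promoters from RefSeq. The members and the lists were chosen with earlier results of these data known. The genes named are the members, the 3 of smallest p per ubiquitin list and the 5 nearest profiles; Emc1, Hectd4, Herc1, Herc2, Huwe1, Kcmf1, Eif2ak1, Dele1, Ate1, Hsph1, Fos, Cd4, Ly6g and Hba-a2 were chosen beside that rule. Alternatives were pseudocounts of 0.1 and 5, other filters, median-of-ratios and quantile scaling, the replicate number as a block, and each library left out. Python 3.11.15 and pandas 2.3.3 were also used.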

Additional observations from a re-analysis of the deposited data

How the results depend on the processing

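The Ubr4 difference lay between -0.42 and -0.36 over the 7 planned settings that use all libraries. It lay between -0.43 and -0.36 with 1 library left out. It was -0.27 relative to transcripts of at least 14000 bases, an alternative chosen after the data were seen. The cause was not tested. Ubr4 was chosen from this comparison in the same libraries, so these values are a description and not further evidence of a difference. With 1 library left out, the differences of Ubr1 (-0.07 to 0.13), Ubr2 (-0.06 to 0.31), Ubr7 (-0.05 to 0.06) and Ubb (-0.07 to 0.09) took either sign, and that of Ubr3 lay between -0.12 and -0.02. The count of genes past the threshold was 7 without a filter on low values, since more genes were tested (22815), and 4 to 9 with 1 library left out (8 without Control replicate 1, 7 without Control replicate 3, 9 without AngII replicate 3). All calls were lower in AngII with all libraries, but 5 of the 9 were higher without AngII replicate 3, 2 without Control replicate 3, 2 without AngII replicate 2 and 1 without AngII replicate 1. Of the listed ubiquitin genes, 0 passed in any setting (146 tested, and 139 with a mean of at least 5 FPKM), with 1 to 16 at an unadjusted p below 0.05. The 16 were found without AngII replicate 2, where 912 of all 11765 genes were at that level, against 208 of 11842 with all libraries. With the replicate number as a block, 3 genes passed, and Ubr4 was at -0.41 (SE 0.059). Deviations of same-numbered libraries correlated at -0.08, -0.02 and -0.04. These values show no pairing of the mice by number, but so few libraries cannot exclude it.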
